A study of Mus musculus with 6 samples.

Results

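The Slc2a genes encode the facilitative hexose transporters, the GLUT proteins, and 10 of them (Slc2a1, Slc2a2, Slc2a3, Slc2a4, Slc2a5, Slc2a6, Slc2a8, Slc2a9, Slc2a10 and Slc2a12) were examined in abdominal white adipose tissue (WAT). Members were taken by name, as every probe of the array whose gene name was 1 of these symbols or an older symbol of it. No measured value entered this naming rule, but the members were chosen with earlier results of these data known. All 10 genes had a probe well above background, and they are 10 of 21059 genes tested. They were represented by 17 probes, all under the current symbol, of which 14 passed the filter on dim probes and 3 were below it on all arrays (none well above background).

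RNA was taken from female C57/BL6 mice at 30 wk of age, from hNAG-1 transgenic mice and from wild-type (WT) mice. The transgene is human NAG-1 (GDF15), a secreted protein of the TGF-β superfamily, which the study's methods describe as expressed in most tissues and highly in white and brown fat; per those methods the arrays held a single transgenic line. WAT of 6 mice of each genotype was combined in pools of 2, and each of the 6 pools (3 for hNAG-1 mice, 3 for WT mice) was hybridised to a single-colour Agilent array of 45018 spots. The study's methods name an Affymetrix array, whereas the scanner files are those of Agilent arrays. Values are given as relative signal, the processed spot intensity divided by the 75th percentile of its own array, so that 1 stands for the 75th percentile; brightness differs between probes for technical reasons, so levels are compared between mice and never between genes. All fold changes are hNAG-1 over WT on the log2 scale, from limma with Benjamini-Hochberg adjustment over all genes and with the standard error (SE) of the fit, and p-values measure the spread between pools.

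GLUT proteins move hexoses across membranes down the concentration gradient, without using energy. In fat cells GLUT4, the product of Slc2a4, is held in internal vesicles and is moved to the cell surface when insulin is present, which makes it the transporter that insulin controls in fat and muscle. Other members serve basal glucose uptake (GLUT1 and GLUT3), fructose uptake (GLUT5), urate transport (GLUT9), glucose flux in liver and pancreatic beta cells (GLUT2), or act at least partly inside the cell (GLUT6, GLUT8, GLUT10 and GLUT12).

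At the 75th percentile, signals were 858.2, 711.9 and 628.8 on the hNAG-1 arrays and 969.6, 912.6 and 935.2 on the WT arrays, and 71.2% to 82.0% of spots were well above background. hNAG-1 replicate 1 shared a slide with the 3 WT arrays, and hNAG-1 replicates 2 and 3 were on another slide with no WT array. All 10 adipocyte markers were measured on every array, with a summed relative signal of 2524, 2751 and 3069 in hNAG-1 mice and 2134, 2300 and 2533 in WT mice. Both replicate 2 arrays stood apart in hepatocyte markers, whose summed relative signal (5 of 6 listed genes, the sixth having no probe) was 2.71, 59.2 and 3.35 in hNAG-1 mice and 9.37, 249.6 and 23.1 in WT mice. In bulk tissue, fewer cells of a type and less RNA per cell cannot be told apart.

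In 4 members the arrays of the genotypes did not overlap, and the probes that measured them are shown here to identify the transcript stretch behind each value. Each is a probe of 60 bases, of which the last 30 bases are printed 5′ to 3′ with the position of the whole probe on mouse build mm7, as the array files give it; whether a probe lies in coding or untranslated sequence was not assigned here. Capitals mark the letters of a polyadenylation signal (AATAAA or ATTAAA), which 4.7% of the 41174 probes hold in their last 30 bases. The Slc2a5 probe lies at chr4:149133208-149133267 (plus strand), the Slc2a4 probe at chr11:70024145-70024204 (minus strand), the Slc2a10 probe at chr2:165259867-165259926 (plus strand) and the Slc2a12 probe at chr10:22460497-22460556 (plus strand).
Slc2a5 probe: attattaactgtaagcgatactactttgta
Slc2a4 probe: caagggctgctgtATTAAAtgtgtatatag
Slc2a10 probe: actggagacaagcaagagcctcaggtcaga
Slc2a12 probe: gtatggaacgagacatttgtgttttcaata

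The upstream sequences of Slc2a5 and Slc2a12, the members that differed most in either direction apart from Slc2a2, are shown because these genes are set side by side below. They are the 250 bases before each gene's start in RefSeq on GRCm38.p6, chr4:150119094-150119343 for Slc2a5 and chr10:22644761-22645010 for Slc2a12, both on the plus strand. Capitals mark GC boxes, searched as CCGCCC on either strand (GGGCGG on the other), the core of sites that Sp-family factors bind.
Slc2a5 promoter: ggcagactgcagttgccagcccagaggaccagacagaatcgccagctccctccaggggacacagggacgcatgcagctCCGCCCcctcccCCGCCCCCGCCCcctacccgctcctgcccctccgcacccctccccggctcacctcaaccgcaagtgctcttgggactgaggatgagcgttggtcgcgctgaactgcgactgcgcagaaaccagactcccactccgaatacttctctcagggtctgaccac
Slc2a12 promoter: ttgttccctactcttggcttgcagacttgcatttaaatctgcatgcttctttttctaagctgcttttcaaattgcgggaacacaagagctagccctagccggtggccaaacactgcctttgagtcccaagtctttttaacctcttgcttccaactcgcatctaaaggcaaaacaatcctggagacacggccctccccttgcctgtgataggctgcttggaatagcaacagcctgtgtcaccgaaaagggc

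The Slc2a5 window held 3 GC boxes, none overlapping another, and the Slc2a12 window held none. Promoters of 8 members were found in the table, and 4 of them had a GC box (Slc2a1 and Slc2a10 with 2 each, Slc2a6 with 1), whereas 32.7% of 32851 mouse promoters of this length did. The E box CACGTG occurred in 6.02% of all promoters and in 0 of the 8 members. A pair of CANNTG motifs set 5 bases apart, the general form of a carbohydrate response element, reads the same on either strand, can overlap the E box, and occurred in 0.639% and also in 0 of the 8. Such matches describe letters only.

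After adjustment in limma at 0.05, neither a member nor any other gene was called (0% of 21059 genes in either direction; the smallest adjusted p was 0.167). At an unadjusted p under 0.05, 2 members were higher in hNAG-1 mice (Slc2a5 and Slc2a4) and 2 were lower (Slc2a10 and Slc2a12), beside a background of 8.45% of all genes higher and 4.08% lower. Fitted probe by probe, the same 4 genes' probes were those called among the 14 kept, beside 8.19% of 31456 probes higher and 4.11% lower. In the same 4 genes the genotypes did not overlap, 2 with every hNAG-1 array above every WT array, as in 13.7% of all genes, and 2 with every hNAG-1 array below, as in 6.57%. These shares of all genes are also the background for the lists of genes below. Of the 10 members 4 had a log2 fold change above 0 and 6 below 0, with a median of -0.24, beside a median of 0.06 over all genes.

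**Figure D1:**
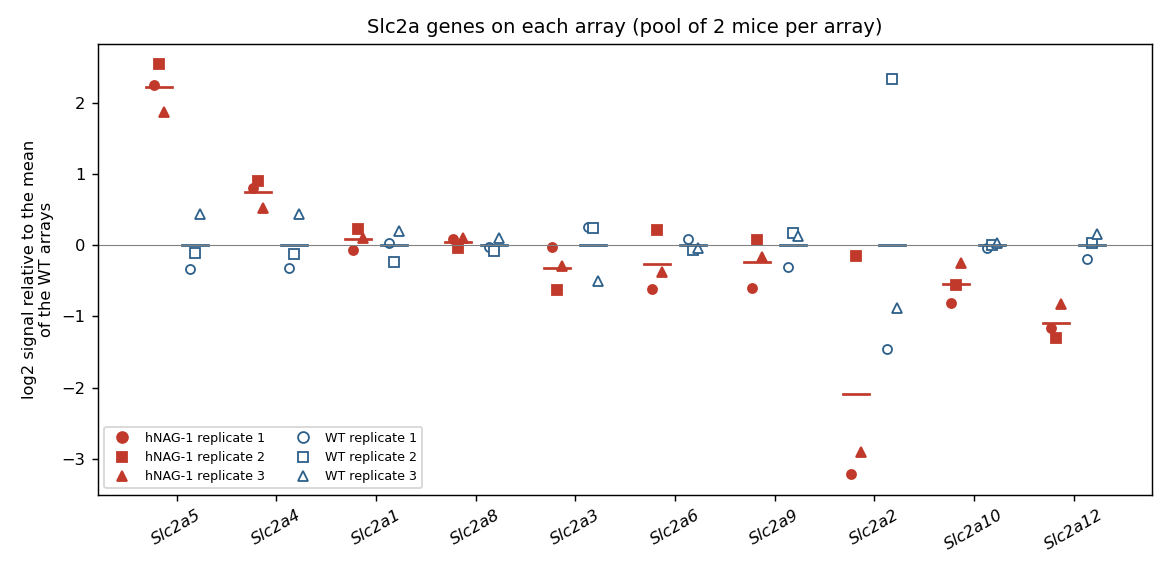
Log2 signal of the 10 Slc2a genes (x axis) on each array, set against the WT mean (y axis), with 1 point per pool of 2 mice, filled for hNAG-1 and open for WT, and bars for group means. The hNAG-1 points lie above all WT points for Slc2a5 and Slc2a4 and below all of them for Slc2a10 and Slc2a12, and both replicate 2 points of Slc2a2 lie above the others of their genotype.

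Slc2a5, the fructose transporter, had the highest fold change of the family and was higher in every hNAG-1 pool. Its relative signal was 12.8, 15.6 and 9.74 in hNAG-1 mice, against 2.12, 2.48 and 3.61 in WT mice. The lowest hNAG-1 pool was thus well above the highest WT pool, and the spread within a genotype was small beside the distance between them. The means were 12.7 ± 2.91 in hNAG-1 mice and 2.74 ± 0.777 in WT mice (SD, n = 3 arrays each), a 4.67-fold difference (here and below, 2 raised to the log2 fold change). The log2 fold change was 2.22 (SE 0.267, 95% confidence interval 1.57 to 2.88), and limma gave unadjusted p = 0.000193 and adjusted p = 0.168. Counting Slc2a5 itself, 13 genes (0.0617% of those tested) had a log2 fold change at least as large, and 22 genes had a smaller p. On the slide that held both genotypes, hNAG-1 replicate 1 was 2.26 above the WT mean on the log2 scale.

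Genes that act on hexoses after uptake had values on both sides of 0. In a list of 13 genes for the phosphorylation of hexoses and the breakdown of fructose, all measured, 8 had a log2 fold change above 0 and 5 below 0, with a median of 0.07, and at an unadjusted p under 0.05 in limma 2 were higher and 1 lower, none passing after adjustment. Hkdc1, a hexokinase-domain protein, had a relative signal of 0.0530, 0.0607 and 0.0930 in hNAG-1 mice and 0.00944, 0.0141 and 0.0402 in WT mice, with the log2 fold change at 1.94 (SE 0.564); it was well above background on 2 of the 3 WT arrays. Hk2, the hexokinase that is regulated by insulin in fat and muscle, had its log2 fold change at 0.63 (SE 0.245), with overlap between the genotypes. Hk1, the widely expressed hexokinase, was at 4.92, 4.98 and 5.98 in hNAG-1 mice and 7.68, 7.24 and 7.04 in WT mice, the log2 fold change being -0.47 (SE 0.125). Khk, whose enzyme ketohexokinase adds the first phosphate to fructose, was named after its values were seen and had its log2 fold change at 0.21 (SE 0.215, adjusted p = 0.714).

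The genes whose arrays were most like those of Slc2a5 were found by the root mean square distance over the 6 arrays between log2 signals, each set against the WT mean. They were Parm1 (distance 0.187), Mvd (0.208), Tmem79 (0.238), Acly (0.263) and Olfr732 (0.328). Acly encodes ATP citrate lyase, which makes cytosolic acetyl-CoA for fatty acid and sterol synthesis, and Mvd encodes mevalonate diphosphate decarboxylase of the sterol pathway. The relative signal of Acly averaged 69.0 ± 9.15 in hNAG-1 mice and 17.9 ± 3.60 in WT mice (SD, n = 3), a log2 fold change of 1.96. Parm1 averaged 33.9 ± 7.63 in hNAG-1 mice and 7.99 ± 1.37 in WT mice, a log2 fold change of 2.07. The distance includes the difference between genotypes, so fold changes near that of Slc2a5 follow from how these genes were chosen. Olfr732, an odorant receptor gene, was well above background on all hNAG-1 arrays and on 0 of the 3 WT arrays. Its relative signal was only 0.0145, 0.0205 and 0.0188 in hNAG-1 mice and 0.00348, 0.00425 and 0.00371 in WT mice. It thus passed the filter through the hNAG-1 arrays alone, and its distance to Slc2a5 rests on WT signals not told apart from background.

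Slc2a4, which encodes the insulin-responsive GLUT4, was also higher in every hNAG-1 pool, by a smaller factor. Its relative signal was 70.8, 75.6 and 58.0 in hNAG-1 mice and 32.2, 37.1 and 54.8 in WT mice. The genotypes did not overlap, but WT replicate 3 came close to hNAG-1 replicate 3. The means were 68.1 ± 9.07 in hNAG-1 mice and 41.4 ± 11.9 in WT mice (SD, n = 3 each), a 1.68-fold difference. The log2 fold change was 0.75 (SE 0.233, 95% confidence interval 0.17 to 1.32), and limma gave unadjusted p = 0.0191 and adjusted p = 0.313. The unadjusted p was 0.0530 without hNAG-1 replicate 1, 0.0566 without hNAG-1 replicate 2, 0.0582 without WT replicate 1 and 0.0612 without WT replicate 2, so the count of members higher in hNAG-1 mice was 1 without any of these arrays. Within the slide that held both genotypes, with a single hNAG-1 array, the difference was 0.81.

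The Slc2a4 probe was printed in 10 spots on each array, so the error between spots of an array is known for this gene. Of these 9 or 10 entered the mean, with a coefficient of variation between spots of 3.26% to 5.57%. On the log2 scale the SD between spots was 0.0470 to 0.0796, against an SD between arrays of 0.20 in hNAG-1 mice and 0.40 in WT mice. The SD between spots holds no error of labelling or hybridisation, which cannot be told apart from the spread between pools with 1 array per pool. Skeletal muscle also makes GLUT4, and the summed relative signal of 10 muscle markers was 64.5, 382 and 78.1 in hNAG-1 mice and 242.5, 105.9 and 51.1 in WT mice; their part in the Slc2a4 values was not tested. Of the 10 adipocyte markers 9 had a log2 fold change above 0 and 1 below 0, with a median of 0.28, and 2 were higher at an unadjusted p under 0.05. Their median log2 signal against the WT mean was 0.14, 0.24 and 0.33 in hNAG-1 mice and -0.14, -0.0009 and 0.12 in WT mice, without overlap, and their part in the Slc2a4 difference was not tested.

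The genes that move GLUT4 vesicles to and from the cell surface had values on both sides of 0. All 37 listed genes were measured, 16 with a log2 fold change above 0 and 21 below 0, and the median was -0.03, beside 0.06 over all genes. At an unadjusted p under 0.05 in limma 3 were higher in hNAG-1 mice and 1 was lower, beside 8.45% and 4.08% of all genes. None passed after adjustment. Ralgapa2, a subunit of the GTPase-activating complex for RalA, had a relative signal of 0.461, 0.432 and 0.354 in hNAG-1 mice and 0.268, 0.211 and 0.227 in WT mice, the log2 fold change being 0.82 (SE 0.159). Tbc1d4 encodes AS160, the Akt substrate that holds GLUT4 vesicles back until insulin acts, and averaged 1.95 in hNAG-1 mice and 1.40 in WT mice, the log2 fold change being 0.48 (SE 0.133). Stx4a, the syntaxin of the plasma membrane at which GLUT4 vesicles fuse, had its log2 fold change at 0.40 (SE 0.114). Stxbp4, also known as Synip, which binds that syntaxin, had one of -0.42 (SE 0.148). In each of these 4 genes the genotypes did not overlap, but they were named for the largest moderated t of the list, which favours genes without overlap. Over all genes, 13.7% had every hNAG-1 array above every WT array and 6.57% every one below.

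Slc2a12 differed between the genotypes in the direction opposite to Slc2a4. It encodes GLUT12, a transporter that in human muscle moves to the cell surface with insulin. Its relative signal was 0.255, 0.232 and 0.323 in hNAG-1 mice and 0.502, 0.584 and 0.639 in WT mice. Every hNAG-1 pool was lower than every WT pool, with a clear gap between the genotypes. The means were 0.270 ± 0.0469 in hNAG-1 mice and 0.575 ± 0.0691 in WT mice (SD, n = 3 each), 2.14-fold lower in hNAG-1 mice. The log2 fold change was -1.10 (SE 0.173, 95% confidence interval -1.52 to -0.67), and limma gave unadjusted p = 0.000807 and adjusted p = 0.176. Counting Slc2a12 itself, 365 genes (1.73% of those tested) lay at least as far below 0. Within the slide that held both genotypes the log2 difference was -1.17.

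Slc2a10 was the other member lower in every hNAG-1 pool. It encodes GLUT10, whose loss in humans causes arterial tortuosity syndrome. The relative signal was 0.132, 0.156 and 0.194 in hNAG-1 mice and 0.224, 0.232 and 0.236 in WT mice. The WT pools were close to each other, with a log2 SD of 0.036, and the hNAG-1 pools spread more, with a log2 SD of 0.28. The log2 fold change was -0.54 (SE 0.166, 95% confidence interval -0.95 to -0.13), 1.45-fold lower in hNAG-1 mice, and limma gave unadjusted p = 0.0181 and adjusted p = 0.309. The unadjusted p was 0.135 with normexp background correction and 0.104 without both replicate 2 arrays, it was not under 0.05 without hNAG-1 replicate 2 either, and within the slide that held both genotypes the log2 difference was -0.81. Fibroblast and macrophage markers, both of which label the stroma of fat, also lay below 0 on balance, with a median log2 fold change of -0.38 over 8 fibroblast markers (7 below 0, 2 of them at an unadjusted p under 0.05) and of -0.31 over 10 macrophage markers (10 below 0, 3 of them at an unadjusted p under 0.05). Against the WT mean, the median log2 signal of the fibroblast markers was -0.33, -0.64 and -0.27 in hNAG-1 mice and 0.25, -0.14 and -0.035 in WT mice. That of the macrophage markers was -0.36, -0.40 and -0.30 in hNAG-1 mice and 0.14, -0.18 and -0.010 in WT mice. In both lists every hNAG-1 array had a lower median than every WT array, as in Slc2a10 and Slc2a12. The summed fibroblast markers were 427.5 to 508.8 in hNAG-1 mice and 479.6 to 558.8 in WT mice, and the macrophage markers 137.9 to 141.2 in hNAG-1 mice and 130.9 to 166.9 in WT mice; these sums overlapped, with Dcn (log2 fold change 0.15) as the main part of the fibroblast sum and Lyz2 (log2 fold change -0.052) of the macrophage sum. Markers of other cells in fat did not all share this direction. The 10 lymphocyte markers were all above 0, with a median log2 fold change of 0.47, but none had an unadjusted p under 0.05 in limma. Their median log2 signal against the WT mean was -0.011, 1.07 and 0.35 in hNAG-1 mice and -0.024, 0.14 and -0.14 in WT mice. Of 9 endothelial markers 3 were above 0 and 6 below 0, with a median of -0.11. Of 6 mesothelial markers 2 were above 0 and 4 below 0, with a median of -0.12. The array medians of lymphocyte, endothelial and mesothelial markers overlapped between the genotypes. The part of these markers in the Slc2a10 and Slc2a12 values was not tested.

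**Figure D2:**
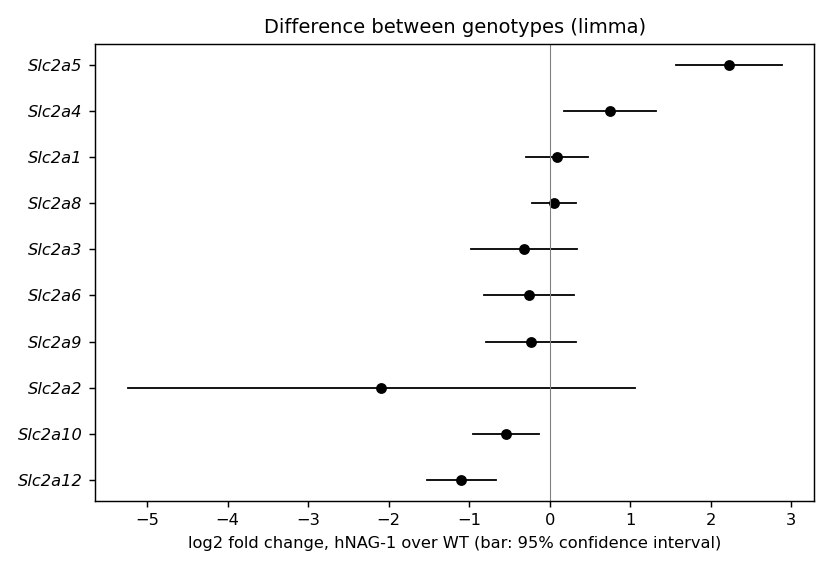
Log2 fold change, hNAG-1 over WT (x axis), of the 10 Slc2a genes from limma, with 95% confidence intervals as bars (3 arrays for each genotype). The intervals of Slc2a5 (1.57 to 2.88) and Slc2a4 lie above 0, those of Slc2a10 and Slc2a12 (-1.52 to -0.67) below 0, and that of Slc2a2 is the widest, from -5.24 to 1.06.

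For the transporters of basal glucose uptake the arrays of both genotypes overlapped. Slc2a1, which encodes the widely expressed GLUT1, was at 1.31, 1.61 and 1.47 in hNAG-1 mice and 1.40, 1.17 and 1.57 in WT mice. The pools of both genotypes were mixed in order, and the log2 fold change was 0.09 (SE 0.157, 95% confidence interval -0.30 to 0.48, adjusted p = 0.829 in limma). Its sign depended on the setting, with -0.06 within the slide that held both genotypes. Slc2a3, which encodes GLUT3, the high-affinity transporter of neurons, was at 0.491, 0.324 and 0.408 in hNAG-1 mice and 0.597, 0.592 and 0.355 in WT mice. WT replicate 3 lay among the hNAG-1 pools, and the log2 fold change was -0.32 (SE 0.268, 95% confidence interval -0.98 to 0.34, adjusted p = 0.652). The value was -0.03 within the slide that held both genotypes, -0.042 without both replicate 2 arrays and -0.16 without hNAG-1 replicate 2. It was -0.19 without WT replicate 1, -0.20 without WT replicate 2 and -0.57 without WT replicate 3 (unadjusted p = 0.0438 in limma). Of 3 probes named Slc2a3, only the one designed on its RefSeq mRNA was detected; the other 2, designed on other cDNAs, were well above background on 0 of 6 arrays, and the array files place 1 of these on chromosome 17 and the others on chromosome 6.

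Slc2a8 and Slc2a6 encode GLUT8 and GLUT6, which are found largely on internal membranes. Slc2a8 had 2 kept probes, and on the brighter one the signal was 2.52, 2.32 and 2.56 in hNAG-1 mice and 2.33, 2.25 and 2.55 in WT mice. The genotypes overlapped, and the log2 fold change of 0.05 had the narrowest interval of the family (SE 0.111, 95% confidence interval -0.22 to 0.33, adjusted p = 0.861 in limma). On the dimmer probe, 0.318, 0.374 and 0.426 in hNAG-1 mice stood against 0.286, 0.316 and 0.309 in WT mice, so that all hNAG-1 arrays were above all WT arrays, with the log2 fold change at 0.29 (SE 0.143, unadjusted p = 0.0944). Slc2a6 was at 0.102, 0.180 and 0.120 in hNAG-1 mice and 0.166, 0.149 and 0.152 in WT mice. hNAG-1 replicate 2 was the highest of the 6 arrays and the other hNAG-1 arrays the lowest, and the log2 fold change was -0.26 (SE 0.227, 95% confidence interval -0.82 to 0.30, adjusted p = 0.665). It was -0.083 without hNAG-1 replicate 1 (unadjusted p = 0.712) and -0.49 without hNAG-1 replicate 2 (unadjusted p = 0.0230). Within the slide that held both genotypes, with a single hNAG-1 array, it was -0.61.

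Slc2a9, whose product carries urate, had 4 probes, all dim. The representative probe was at 0.0365, 0.0579 and 0.0492 in hNAG-1 mice and 0.0446, 0.0621 and 0.0606 in WT mice, with overlap and with the log2 fold change at -0.23 (SE 0.227, 95% confidence interval -0.79 to 0.33, adjusted p = 0.700 in limma). It was -0.047 without hNAG-1 replicate 1, -0.38 without hNAG-1 replicate 2 or without WT replicate 1, and -0.59 within the slide that held both genotypes. Its other kept probes gave 0.38 (SE 0.558) and -0.20 (SE 0.452), so that the probes did not share a sign. The fourth, placed at chr5:37763898-37776284, a stretch far longer than a probe, was not well above background on any array.

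Slc2a2, which encodes the GLUT2 of liver and pancreatic beta cells, had the lowest fold change of the family and by far the widest error. Its relative signal was 0.0105, 0.0888 and 0.0130 in hNAG-1 mice and 0.0356, 0.496 and 0.0534 in WT mice. Both replicate 2 arrays were far above the others of their genotype, and WT replicate 2 was the highest of all. The probe was well above background on 1 of 3 hNAG-1 arrays and 3 of 3 WT arrays. The log2 fold change was -2.09 (SE 1.28, 95% confidence interval -5.24 to 1.06), and limma gave unadjusted p = 0.154 and adjusted p = 0.543. A second, dimmer probe had the same order of replicate 2 arrays, 0.0120, 0.0438 and 0.00820 in hNAG-1 mice and 0.0157, 0.149 and 0.0183 in WT mice, with the log2 fold change at -1.10 (SE 1.06).

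The hepatocyte markers had the same pattern over the arrays as Slc2a2. The median log2 signal of the 5 measured markers set against the WT mean was -4.02, 0.59 and -3.45 in hNAG-1 mice and -2.05, 2.71 and -0.79 in WT mice, with a median log2 fold change of -2.24. All 5 were below 0 and none had an unadjusted p under 0.05. By the distance used for Slc2a5, the genes most like Slc2a2 were Bbox1 (0.187), Cfi (0.191), Cyp3a11 (0.272), Itih2 (0.291) and Cyp2d10 (0.294), which include a carnitine synthesis enzyme, a complement factor, cytochrome P450 enzymes and a plasma protein made in the liver. The exocrine pancreas markers were also high on WT replicate 2, with a summed relative signal of 5.43, 5.70 and 5.99 in hNAG-1 mice and 4.46, 28.8 and 5.87 in WT mice. Intestinal epithelium markers were highest on both replicate 2 arrays, with sums of 0.140, 0.369 and 0.204 in hNAG-1 mice and 0.185, 0.789 and 0.212 in WT mice. Pancreatic islet markers, at 0.0817, 0.197 and 0.122 in hNAG-1 mice and 0.114, 0.0936 and 0.0543 in WT mice, were not highest on WT replicate 2. Without WT replicate 2 the log2 fold change of Slc2a2 was -0.92 (unadjusted p = 0.418), and without hNAG-1 replicate 2 it was -3.07 (unadjusted p = 0.0461). Without both replicate 2 arrays, a setting chosen after their hepatocyte markers were seen, it was -1.90 (SE 0.277, unadjusted p = 0.00232, adjusted p = 0.711). That value rests on dim signals: before scaling, 9.03 and 8.19 on hNAG-1 replicates 1 and 3, against 34.5 and 49.9 on WT replicates 1 and 3. With normexp background correction on all arrays the log2 fold change was -0.73 (SE 0.821). The part of hepatocyte RNA, or of RNA from these other tissues, in the Slc2a2 difference was not tested.

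**Figure D3:**
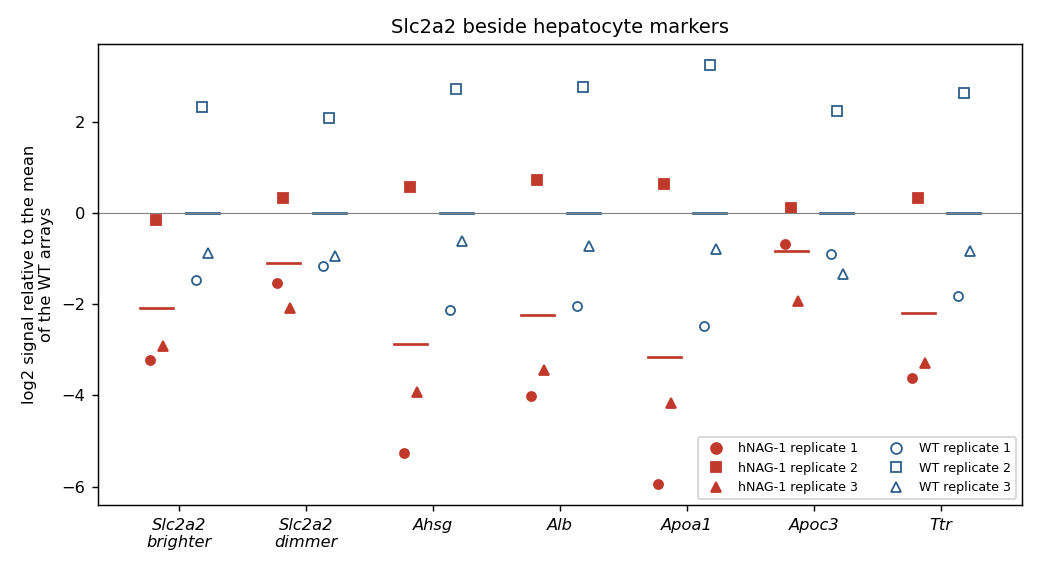
Log2 signal set against the WT mean (y axis) for the brighter and the dimmer probe of Slc2a2 and for 5 hepatocyte markers (x axis), with 1 point per array and bars for group means. Within each genotype the replicate 2 array is the highest for every gene shown, and WT replicate 2 is the highest of the 6 arrays.

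A list of 22 regulators of Slc2a genes and proteins, all measured, had 12 genes above 0 and 10 below 0, with a median log2 fold change of 0.03. At an unadjusted p under 0.05 in limma 4 were higher and 3 lower, and none passed after adjustment. Mlxipl, which encodes ChREBP, the transcription factor that responds to glucose, was at 29.7, 24.2 and 23.8 in hNAG-1 mice and 10.8, 10.1 and 11.7 in WT mice, the log2 fold change being 1.25 (SE 0.137, adjusted p = 0.167). Its binding partner Mlx was at 3.02, 2.93 and 2.40 in hNAG-1 mice and 1.72, 1.53 and 1.93 in WT mice, the log2 fold change being 0.69 (SE 0.152). Srebf1, whose product turns on fatty acid synthesis under insulin, was at 94.0, 90.5 and 61.0 in hNAG-1 mice and 38.4, 39.7 and 44.5 in WT mice, the log2 fold change being 0.98 (SE 0.198). In these 3 genes the genotypes did not overlap, but they were named for a large moderated t, which favours genes without overlap. Every hNAG-1 array was above every WT array in 13.7% of all genes. Among the other regulators, genes without overlap were found in both directions. Ebf1, a transcription factor of fat cell formation, was lower in every hNAG-1 pool, with 1.56, 1.36 and 1.34 in hNAG-1 mice and 1.88, 1.86 and 2.04 in WT mice (log2 fold change -0.44, SE 0.117).

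**Figure D4:**
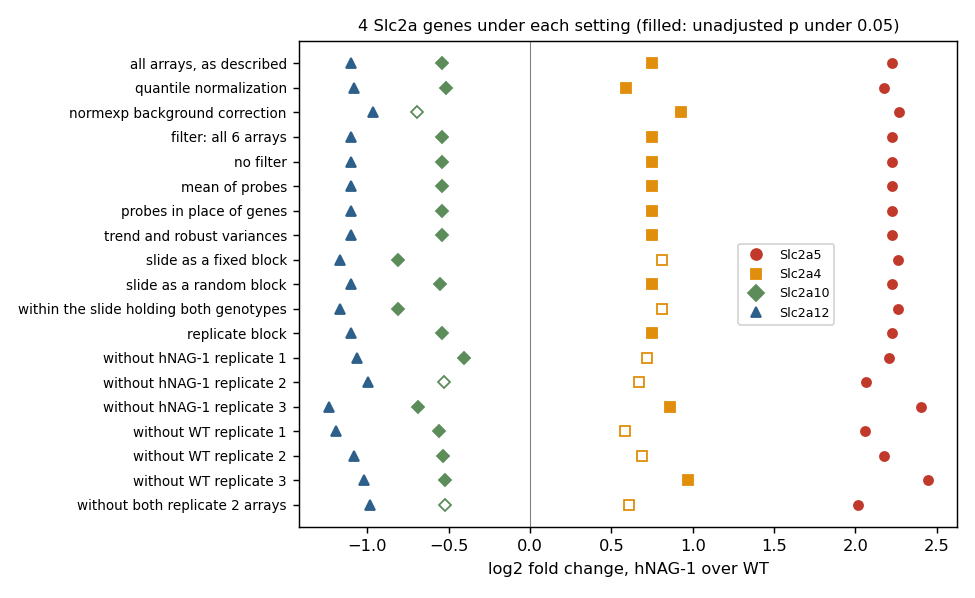
Log2 fold change, hNAG-1 over WT (x axis), of Slc2a5, Slc2a4, Slc2a10 and Slc2a12 under each processing setting (y axis), filled where the unadjusted p in limma is under 0.05. Slc2a5 stays between 2.01 and 2.44 and Slc2a12 between -1.23 and -0.97 with every point filled, whereas Slc2a4 and Slc2a10 have open points under some settings. The setting within the slide of both genotypes has a single hNAG-1 array, so its p holds no spread between hNAG-1 pools. The genes shown have 1 probe each, so settings that change only filters, probes or variances cannot move their fold changes.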

How the data were processed

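Abdominal WAT RNA was measured on 6 arrays. Scanner tables from Agilent Feature Extraction 9.5 (a version taken from the submitters' processing notes) were deposited for every array. Deposited spot intensity is linear, background-subtracted and detrended within the array. A separate value table of processed signal was deposited as well; its 45018 rows equal the scanner values, so no normalization between arrays had been applied. The deposited files also hold flags for outlier and saturated spots and for spots well above background.

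Of the spots, 1639 controls and outlier-flagged spots were left out, and spots of a probe were averaged. Log2 signal minus the array's 75th percentile was used. A probe was kept if 3 or more of 6 arrays had it well above background (31456 of 41174, after 33 were dropped for a missing value). Genes were named through accession (22951 probes), symbol (6659) or synonym (3109) in a mouse RefSeq table (GRCm38), with 8455 keeping the file's name, and a gene was represented by its brightest kept probe. Genotypes were compared with lmFit and eBayes (limma 3.58.1, R 4.3.3), two-sided, at an adjusted p threshold of 0.05; members are described beside the share of all genes called, with no test of lists. The scripts were tested on simulated data. Correlations between arrays were 0.9651 to 0.9876, so no array repeated another, and the number of arrays limits the precision.

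The members, lists and tests were chosen with earlier results of these data known. Named genes were all members with all their probes, the genes with the largest moderated t per list (4 at most), and the 5 genes nearest to the member with the largest fold change in each direction. Alternatives were quantile normalization, normexp (offset 50), other filters, the mean of probes, probes in place of genes, trended and robust variances, slide as a block and within a slide, a replicate block, single arrays left out one by one and, added after seeing the data, both replicate 2 arrays left out. Promoters are from RefSeq, and the transgene, being human, was not checked by these probes. A gene that this rule names in the list of hexose phosphorylation and fructose breakdown is not reported here.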

Additional observations from a re-analysis of the deposited data

How the results depend on the processing

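Slc2a5 and Slc2a12 kept their direction under all 18 alternatives, with log2 fold changes of 2.01 to 2.44 and -1.23 to -0.97. Their unadjusted p in limma was under 0.05 in every alternative with more than 1 hNAG-1 array. With 1 probe each, their fold changes could not move under other filters, mean of probes, probes in place of genes, trended variances or the replicate block. With slide as a fixed term they were 2.26 and -1.17, the same as within the slide of both genotypes. Both of these alternatives compare hNAG-1 replicate 1 alone with the WT arrays. The alternative within the slide of both genotypes had a single hNAG-1 array. Its p-values and counts therefore hold no spread between hNAG-1 pools. With trended and robust variances their adjusted p was 0.0212 and 0.0421 (log2 fold changes unchanged at 2.22 and -1.10), where the adjusted threshold called 107 genes up and 23 down in hNAG-1 mice. Slc2a4 kept its sign (0.59 to 0.97) and an unadjusted p under 0.05 in 11 of 18, and Slc2a10 (-0.81 to -0.41) in 15 of 18, so that members lower numbered 1 with normexp. Members higher numbered 1 with slide as a fixed term, within the slide of both genotypes and without both replicate 2 arrays; with each array left out in turn they numbered 1 to 2, and members lower 2 to 3. Slc2a1 turned to -0.062 with slide as a fixed term or within that slide and -0.093 without both replicate 2 arrays, and spanned -0.022 (without WT replicate 2) to 0.19 with each array left out. Slc2a2, spanning -3.22 to -0.73, was not tested under the filter requiring all 6 arrays.

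Over all genes, 324 were higher and 112 lower at an unadjusted p under 0.05 with normexp, against 1780 and 860; 825 were higher with slide fitted as a term and 571 in the slide of both genotypes; 723 were higher and 550 lower without both replicate 2 arrays; 1292 probes were lower in place of genes. Leaving out each array gave 960 (without hNAG-1 replicate 2) to 2379 higher and 529 (without WT replicate 1) to 1242 lower. Normexp moved the median of all genes to -0.19, and relative to it Slc2a5 stood at 2.46, Slc2a4 at 1.12, Slc2a10 at -0.50 and Slc2a12 at -0.77. The median of the members was -0.47 with normexp and -0.27 to -0.065 (without hNAG-1 replicate 1) with each array left out. The median of GLUT4 vesicle genes was 0.092 with normexp and -0.041 to 0.048 with each array left out, that of regulators 0.12 with normexp and -0.041 without both replicate 2 arrays, and that of other sugar and polyol transporters -0.27 with normexp and -0.24 with slide as a term or in the slide of both genotypes. The causes were not tested.

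Arrays of the same replicate number in both genotypes deviated together with r = 0.0976, 0.512 and 0.0948 for numbers 1, 2 and 3, too little at 2 of them to take the numbers as pairs. With the replicate block 1492 genes were higher and 923 lower at an unadjusted p under 0.05, with 2 members higher and 3 lower, the third being Slc2a2 (-2.09, SE 0.194, unadjusted p = 0.000358, adjusted p = 0.134). The Slc2a2 probe was well above background on 1 of 3 hNAG-1 arrays.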

Other observations

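The transporters of sugars and polyols outside the Slc2a family had values on both sides of 0. Of 13 listed genes 10 were measured, 6 with a log2 fold change above 0 and 4 below 0, with a median of 0.13, and at an unadjusted p under 0.05 in limma 0 were higher and 1 was lower, none passing after adjustment. Slc37a2, a sugar phosphate exchanger of the endoplasmic reticulum, averaged 0.114 in hNAG-1 mice and 0.142 in WT mice, with a log2 fold change of -0.32 (SE 0.124). Slc5a3, the sodium-coupled myo-inositol transporter, averaged 2.46 in hNAG-1 mice and 3.27 in WT mice, with a log2 fold change of -0.41 (SE 0.189). In Slc37a2 and Slc5a3 every hNAG-1 array was below every WT array, as in 6.57% of all genes. Both were named for a large moderated t, which favours genes without overlap. Slc37a3 had a log2 fold change of -0.40 (SE 0.237), and Slc37a4, the glucose 6-phosphate transporter, one of 0.31 (SE 0.176). Slc5a9 was not well above background on any array.

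The genes most like Slc2a12, looked up after its values were seen, were Sncg (distance 0.142), Vgll3 (0.142), Abcg1 (0.144), C4b (0.152) and Svep1 (0.168). Sncg, a synuclein that fat cells make, averaged 12.1 ± 1.18 in hNAG-1 mice and 29.4 ± 3.89 in WT mice (SD, n = 3), a log2 fold change of -1.28. Abcg1, a cholesterol exporter, averaged 1.09 ± 0.196 in hNAG-1 mice and 2.52 ± 0.148 in WT mice, a log2 fold change of -1.22. Fold changes near that of Slc2a12 follow from the choice by distance, which includes the difference between genotypes.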
